A study of Homo sapiens with 12 samples.

Results

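The ephrins and their Eph receptors, the Slits and their Robo receptors, and the netrins and their receptors of the DCC and UNC5 families are cell surface and secreted molecules that steer migrating cells and growing axons. Ephrins are tethered to the membrane, the A type by a lipid anchor and the B type by a transmembrane segment, and bind Eph receptor tyrosine kinases on the neighbouring cell, so that both cells receive a signal. Slits are large secreted glycoproteins that bind Robo receptors and mostly repel, and netrins are laminin-related secreted proteins that attract through DCC and repel through UNC5 receptors.

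The genes were taken by symbol. A probe set counted where the array annotation gave it a single gene of one of the 3 systems, which left 38 probe sets and, with one probe set kept per gene, 37 of the 18404 genes measured. There were 15 ligand genes (8 ephrins, 3 Slits and 4 netrins) and 22 receptor genes (13 Eph receptors, 4 Robo receptors and 5 netrin receptors). EPHA10 had 2 probe sets. EPHB2 was not analysed here, since no probe set of a single gene carried it.

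Total RNA of 2102Ep and NTera-2, both human embryonal carcinoma lines and thus the stem cell component of a germ cell tumour, was hybridised to Affymetrix Human Gene 1.0 ST arrays. There were 4 groups of 3 arrays, labelled as biological replicates. 2102Ep cells (passages 35 to 50) received Ambion Silencer Select Negative Control #1 or an siRNA against SOX2 with Lipofectamine 2000, and NTera-2 cells (passages 40 to 50) received the same control or the SOX2 siRNA with Lipofectamine RNAiMAX. All groups were seeded 24 hours before transfection, transfected for 6 hours and kept for 72 hours afterwards. Per the study's methods the amount of siRNA differed between the lines too, so that line, reagent and amount cannot be told apart, and without a rescue of SOX2 neither can an effect of SOX2 loss and another effect of the siRNA. Values are log2 array signals, so that a difference of 1 is a 2-fold change, and levels of different genes are not set against each other because their probes differ. "Rose" and "fell" are used of genes with a limma adjusted p of 0.05 or less over all 18404 genes, and the 2-fold threshold of the study, which also asks for an unadjusted p of 0.01 or less, is named where it was passed. The comparisons share a fit over all 12 arrays.

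SOX2, the targeted pluripotency factor, read 12.28, 12.21 and 12.20 on the 2102Ep control arrays and 9.17, 9.30 and 8.80 on the siSOX2 arrays, which left 11.4% of its signal (95% interval 9.59 to 13.5%). In NTera-2 the control arrays read 12.51, 12.52 and 12.63 and the siSOX2 arrays 11.92, 11.95 and 11.86, with 64.0% left (53.9 to 75.9%). The fall of SOX2 mRNA was therefore deeper in 2102Ep, by 2.49 on the log2 scale (adjusted p = 4.87e-08). Over all 32321 probe sets, array medians lay between 7.43 and 7.58. Arrays of one group correlated at 0.983 to 0.994 over these probe sets, against at most 0.972 between lines. The list of embryonal carcinoma markers also held POU5F1 and NANOG, which were not among the genes analysed here. Of 11 embryonal carcinoma markers measured, 7 fell and 0 rose in 2102Ep, beside 5.9% of all genes that fell. In NTera-2, 5 of these markers fell and 0 rose, beside 1.98% of all genes that fell. The mean over these markers was 10.99 to 11.29 on 2102Ep control arrays and 10.44 to 10.60 on siSOX2 arrays, and in NTera-2 it was 10.66 to 10.96 against 10.25 to 10.53. Most markers of neurons (6 of 7), endothelium (4 of 6), fibroblasts (4 of 7) and leukocytes (4 of 5) were below the median gene signal of 8.03. That median divides all genes measured into equal parts, so these counts do not show whether such cells were present. In 2102Ep the endothelial markers CDH5 (-0.79) and PECAM1 (-0.55), the neuronal ELAVL3 (-0.57), the fibroblast marker THY1 (-0.61) and the leukocyte marker CD53 (-1.08) fell, and PDGFRA (0.86) and LAPTM5 (0.37) rose. In NTera-2 SYT1 (-0.71), KDR (-0.70) and THY1 (-0.86) fell and COL1A2 (0.68) and LUM (0.74) rose. The mean over the endothelial markers was 7.36 to 7.44 on 2102Ep control arrays and 6.99 to 7.06 on siSOX2 arrays. In NTera-2 it was 7.18 to 7.34 against 7.01 to 7.25, which overlapped. The fibroblast mean was higher after siSOX2, at 6.99 to 7.16 against 7.23 to 7.30 in 2102Ep. In NTera-2 it was 6.97 to 7.10 against 7.12 to 7.29. The neuronal mean (6.90 to 7.05 against 6.80 to 6.89) and the leukocyte mean (6.66 to 6.89 against 6.50 to 6.64) were lower in 2102Ep. Both overlapped in NTera-2. The neuronal ranges in 2102Ep nearly met, at 6.896 and 6.893, and the median change over the leukocyte markers there was -0.05. The shares past the adjusted p in 2102Ep were 14.3% (neurons), 33.3% (endothelium), 28.6% (fibroblasts) and 40% (leukocytes), beside 12.7% of all genes. In NTera-2 they were 14.3%, 16.7%, 42.9% and 0%, beside 4.94%. The part of these marker changes in the values below was not tested, and in RNA from a whole culture a change in the share of cells of one type cannot be told apart from a change in RNA per cell.

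In 2102Ep cells, 14 of the 37 guidance genes (37.8%) passed the adjusted p after siSOX2, beside 12.7% of all genes measured. Higher were 10 of them, beside 6.76% of all genes, and lower 4, beside 5.9%. Ephrin and Slit ligands, EPHA2, EPHA4, EPHB3, ROBO1 and UNC5C made up the rises, and NTN4, EPHA7, UNC5A and UNC5D the falls. At least 2-fold were the rise of EFNA1 and the fall of EPHA7, which made 2 of 37 beside 1.98% of all genes. The arrays of the 2 groups did not overlap for 19 of the 37 genes, against 25.2% of all genes. The median change over the 37 genes was 0.06, and it was -0.01 over all genes.

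In NTera-2 cells 9 of the 37 (24.3%) passed, beside 4.94% of all genes. Higher were 8, beside 2.96% of all genes, and lower 1, beside 1.98%. EFNA1, EFNA3, EFNB1, SLIT2, SLIT3, EPHB1, EPHB3 and UNC5B rose and EPHA1 fell. SLIT2 and EPHB3 rose by at least 2-fold, which made 2 of 37 beside 0.657% of all genes. With the arrays quantile-normalised again the split was 6 higher and 3 lower, and with each array centred on its median it was 6 and 2. Without NTera-2 control replicate 2 or siSOX2 replicate 3 the rises numbered 3, and leaving out any other NTera-2 array, or any 2102Ep siSOX2 array, left 4 or 5. The median change was -0.02 over the 37 genes and 0.04 over all genes, and arrays did not overlap for 17 of the 37 against 21.3% of all genes.

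**Figure D1:**
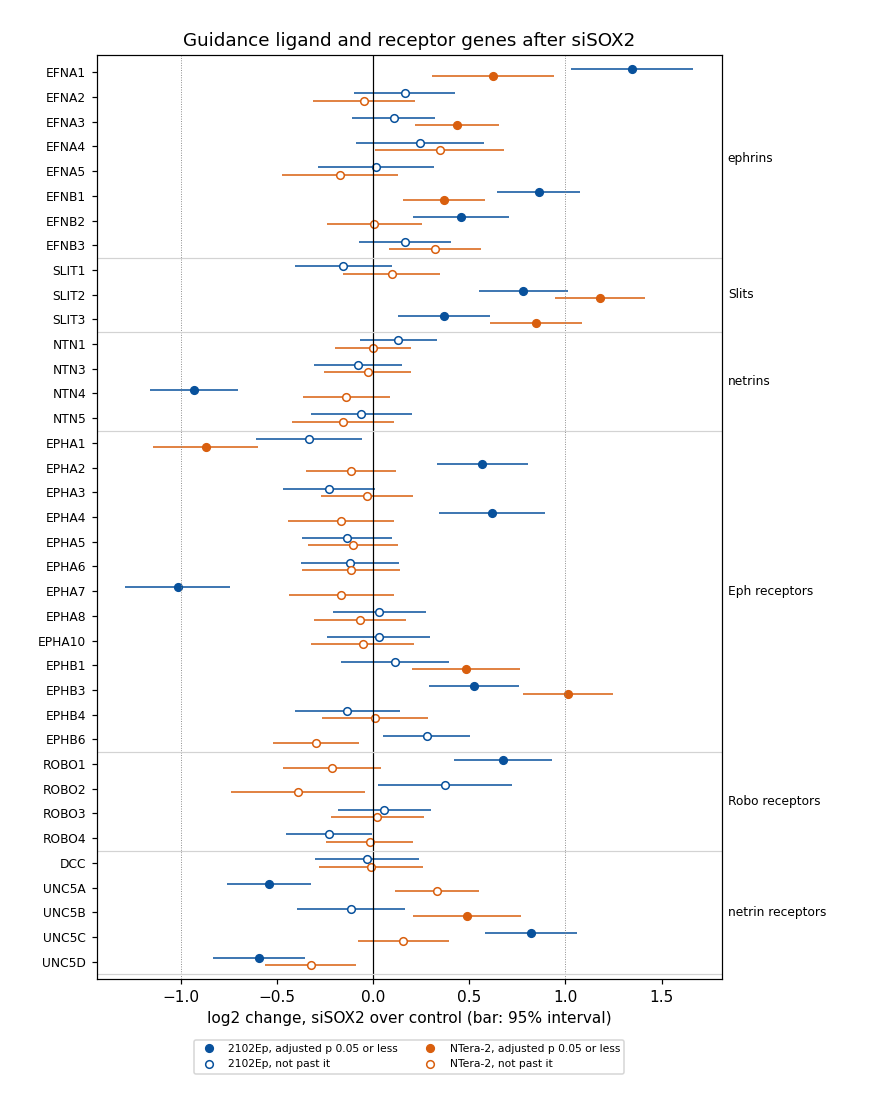
Change of each of the 37 genes after siSOX2, as the log2 difference from control cells of the same line, in 2102Ep (blue) and NTera-2 (orange). Bars are 95% intervals of the limma fit over 3 arrays a group, filled points passed the adjusted p of 0.05, and the dotted lines mark a 2-fold change. Filled points on the left are NTN4, EPHA7, UNC5A and UNC5D in 2102Ep and EPHA1 in NTera-2.

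Counted by role, 5 ligands rose and 1 fell of 15 in 2102Ep, while 5 receptors rose and 3 fell of 22. In NTera-2, 5 ligands rose and 0 fell, and 3 receptors rose and 1 fell. Of all genes, 6.76% rose and 5.9% fell in 2102Ep, and 2.96% rose and 1.98% fell in NTera-2. In both lines 5 genes passed, in the same direction, and all of these rose: the ligands EFNA1, EFNB1, SLIT2 and SLIT3 and the receptor EPHB3. There were 0 genes that passed in opposite directions, 9 passed in 2102Ep alone, 4 in NTera-2 alone and 19 in neither. Over all genes, 2.23% passed in both lines in the same direction, 0.217% in opposite directions, 10.2% in 2102Ep alone, 2.49% in NTera-2 alone and 84.9% in neither.

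EFNA1, an A-type ephrin first found as a gene induced by inflammatory signals in endothelium, had a signal of 6.88, 6.87 and 7.46 on the 2102Ep control arrays and 8.29, 8.28 and 8.68 on the siSOX2 arrays. Control replicate 3 stood above the other control arrays, and every siSOX2 array stood above all 3. Its signal rose by 1.35 (SE 0.15, adjusted p = 5.73e-06), or 2.55-fold. In NTera-2, EFNA1 read 6.73, 6.78 and 6.96 in control cells and 7.38, 7.50 and 7.47 after siSOX2. Here too the groups did not overlap, and the rise was 0.62 (SE 0.15, adjusted p = 0.0195). It missed the threshold in 4 of 19 other settings, each without a single NTera-2 array (control replicate 1 or 2, siSOX2 replicate 2 or 3). The gap between the responses, 0.72, had an adjusted p of 0.0603 and was not called, though it was with each array centred on its median (adjusted p = 0.0327) or quantile-normalised again (adjusted p = 0.0328).

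EFNB1, a transmembrane ephrin whose loss in people causes a craniofacial disorder, rose from 9.06 ± 0.11 (SD, n = 3) to 9.92 ± 0.03 in 2102Ep, a change of 0.86 (SE 0.10, adjusted p = 1.09e-05). It rose from 9.55 ± 0.09 to 9.92 ± 0.11 in NTera-2, by 0.37 (adjusted p = 0.0456). The NTera-2 control cells started 0.49 above the 2102Ep control cells (adjusted p = 0.000747), and both lines had the same mean, 9.92, after siSOX2. The NTera-2 rise of EFNB1 missed the threshold in 11 of the 20 other settings tried. The responses differed by 0.49 (adjusted p = 0.0578), a difference that passed with median centring (adjusted p = 0.0185) or quantile normalisation again (adjusted p = 0.0178).

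Both of the Slits that rose did so in each line. SLIT2, a midline repellent in the embryonic spinal cord, read 6.40, 6.26 and 6.31 in 2102Ep control cells and 7.03, 7.26 and 7.03 after siSOX2, a rise of 0.78 (SE 0.11, adjusted p = 7.55e-05). In NTera-2 its control arrays read 7.36, 7.59 and 7.50 and its siSOX2 arrays 8.61, 8.55 and 8.83. The arrays of the 4 groups formed separate ranges, and the lowest NTera-2 control array stood above the highest 2102Ep siSOX2 array. The NTera-2 rise was 1.18 (SE 0.11, adjusted p = 2.84e-06), or 2.27-fold, and its difference from the 2102Ep rise was -0.40 (adjusted p = 0.198). SLIT3, which has a known role in diaphragm and vessel development, went from 8.33 ± 0.21 to 8.70 ± 0.06 (SD, n = 3) in 2102Ep and from 7.56 ± 0.11 to 8.41 ± 0.07 in NTera-2. The NTera-2 rise was 0.85 (SE 0.11, adjusted p = 0.000132). The 2102Ep rise of SLIT3, 0.37 (adjusted p = 0.0393), missed the threshold in 9 of 20 other settings. SLIT1 changed by -0.16 and 0.10 and did not pass in either line.

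EPHB3, a receptor for B-type ephrins that positions cells along the intestinal crypt, was the receptor that passed in both lines. Its 2102Ep control arrays read 8.85, 8.45 and 8.72 and the siSOX2 arrays 9.25, 9.16 and 9.17, a rise of 0.52 (SE 0.11, adjusted p = 0.00336). In NTera-2 the control arrays read 7.98, 7.97 and 7.84 and the siSOX2 arrays 8.86, 8.91 and 9.05. All siSOX2 arrays were above all control arrays in each line, and every NTera-2 siSOX2 array was above every 2102Ep control array. The NTera-2 rise was 1.01 (SE 0.11, adjusted p = 1.66e-05), or 2.02-fold. It was 0.97 without NTera-2 control replicate 3 and 0.96 without NTera-2 siSOX2 replicate 3, just under 2-fold. The responses of EPHB3 differed by -0.49 (adjusted p = 0.0915), so no difference between the lines was called.

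**Figure D2:**
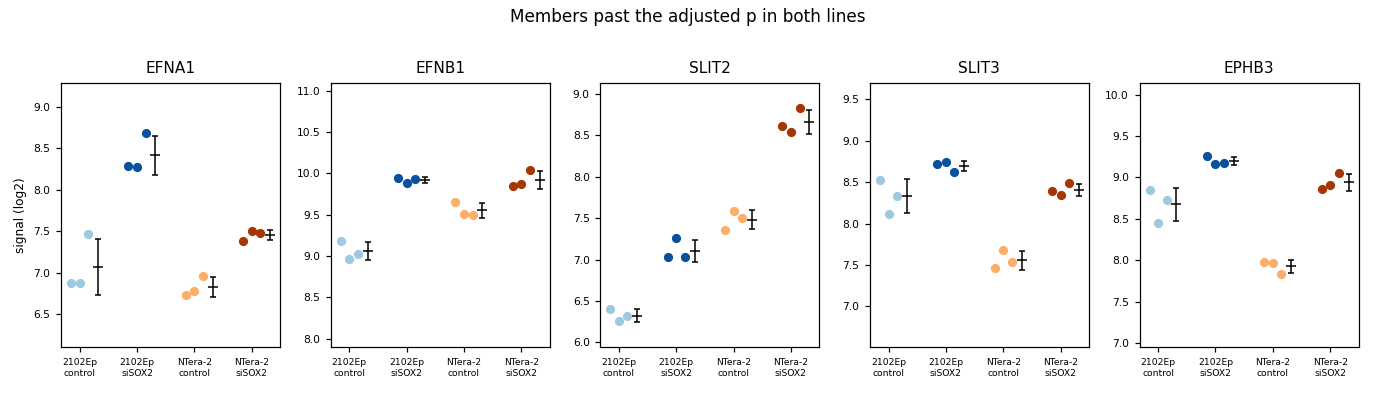
Log2 signal of the 5 genes that rose in both lines. Each point is an array, in the order of replicates 1 to 3, and the bar beside it is the group mean with 1 SD (n = 3). Each panel has its own vertical scale, and in each the siSOX2 arrays stand above the control arrays of the same line.

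The stretch just upstream of the annotated start of these 5 genes is shown because they moved the same way in both lines. The letters are from RefSeq (GRCh38.p14), 250 bases ending at the base before the start, read 5′ to 3′ on the gene's own strand, with a SOX core motif (ACAAAG) in capitals where it was found.
EFNA1 (chr1:155127626-155127875, plus strand): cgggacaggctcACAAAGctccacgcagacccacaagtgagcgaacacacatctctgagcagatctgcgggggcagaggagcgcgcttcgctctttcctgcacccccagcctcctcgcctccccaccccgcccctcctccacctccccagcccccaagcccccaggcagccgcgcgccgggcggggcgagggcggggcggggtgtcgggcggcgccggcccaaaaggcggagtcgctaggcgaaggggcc
EFNB1 (chrX:68828771-68829020, plus strand): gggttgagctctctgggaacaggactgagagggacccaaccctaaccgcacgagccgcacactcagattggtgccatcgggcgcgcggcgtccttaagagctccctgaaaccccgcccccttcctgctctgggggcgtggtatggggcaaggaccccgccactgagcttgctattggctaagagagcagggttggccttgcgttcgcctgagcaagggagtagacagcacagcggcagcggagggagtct
SLIT2 (chr4:20251655-20251904, plus strand): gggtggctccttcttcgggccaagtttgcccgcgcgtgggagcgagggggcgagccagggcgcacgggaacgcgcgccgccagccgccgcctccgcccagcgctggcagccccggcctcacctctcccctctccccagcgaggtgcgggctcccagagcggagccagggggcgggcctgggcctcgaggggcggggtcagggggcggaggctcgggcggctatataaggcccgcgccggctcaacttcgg
SLIT3 (chr5:169301140-169301389, minus strand): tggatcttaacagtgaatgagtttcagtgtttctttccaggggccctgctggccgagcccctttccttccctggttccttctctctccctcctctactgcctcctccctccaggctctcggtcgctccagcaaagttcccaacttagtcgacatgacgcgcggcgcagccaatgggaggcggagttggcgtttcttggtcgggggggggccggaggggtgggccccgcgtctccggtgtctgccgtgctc
EPHB3 (chr3:184561535-184561784, plus strand): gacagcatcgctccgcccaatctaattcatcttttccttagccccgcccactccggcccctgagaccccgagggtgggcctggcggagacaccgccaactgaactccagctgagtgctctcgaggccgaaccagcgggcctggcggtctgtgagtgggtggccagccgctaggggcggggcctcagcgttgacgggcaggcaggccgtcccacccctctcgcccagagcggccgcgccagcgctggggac

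All 5 windows were rich in G and C, from 62.8% in SLIT3 to 77.2% in SLIT2. EFNA1 held the motif ACAAAG, beginning 238 bases before its start, and the other 4 windows held none of the motifs searched. Promoter windows were matched for 31 of the 37 genes, 41 windows in all since some genes have more than one start. Their median GC content was 64.8% and they held a median of 19 CpG pairs. Over all 35116 RefSeq windows, of 27305 genes, these medians were 58% and 11. That larger set was not limited to the genes measured. Each motif was searched on both strands. ACAAAG lay in 2 of the 41 windows (4.88%, in EFNA1 and EFNA2), beside 13.7% of all windows, and CATTGT, another SOX core, lay in 3 (7.32%, in EPHA4, EPHA6 and EPHB1), beside 9.29%. CTTTGAT, the core bound by TCF and LEF factors, and TCACACCT, a T-box core, lay in 0 of the 41, beside 2.26% and 0.786% of all windows. A match of 6 letters is a description of the window and not a binding site.

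Among the other ephrins, EFNB2, which marks arterial endothelium in the embryo, rose in 2102Ep from 7.71 ± 0.18 to 8.17 ± 0.04 (SD, n = 3), by 0.46 (adjusted p = 0.0141), a call lost without control replicate 2 or siSOX2 replicate 1. In NTera-2 EFNB2 read 8.14 ± 0.04 and 8.15 ± 0.21, a change of 0.01 (adjusted p = 0.995), and the difference between the responses did not pass (0.45, adjusted p = 0.163). EFNA3 rose in NTera-2 from 7.89 ± 0.10 to 8.33 ± 0.09, by 0.43 (adjusted p = 0.0187), and had a change of 0.11 in 2102Ep. The EFNA3 call was lost without NTera-2 control replicate 2 or 3 or siSOX2 replicate 3. The difference between the EFNA3 responses did not pass (-0.33, adjusted p = 0.291). EFNA4, EFNA3 and EFNA1 are direct neighbours in RefSeq gene order. The changes of EFNA4 were 0.24 in 2102Ep (adjusted p = 0.415) and 0.34 in NTera-2 (adjusted p = 0.317). EFNA2, EFNA5 and EFNB3 passed in neither line, with changes from -0.17 to 0.32.

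NTN4, a basement membrane netrin, was the ligand that fell. Its signal was 8.61, 8.55 and 8.57 in 2102Ep control cells and 7.61, 7.67 and 7.65 after siSOX2. The replicates lay close together and the groups far apart, with a fall of 0.93 (SE 0.11, adjusted p = 8.28e-06). In NTera-2 the control arrays, at 7.56, 7.20 and 7.43, overlapped the siSOX2 arrays, at 7.29, 7.12 and 7.35. The NTera-2 change was -0.14 (adjusted p = 0.646), and the responses differed by -0.79 (adjusted p = 0.00389). NTN1, the founding axon attractant, had a change of 0.13 in 2102Ep (adjusted p = 0.482) and did not pass in NTera-2 (adjusted p = 0.998). NTN3 and NTN5 passed in neither line.

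In 2102Ep 4 Eph receptors passed. EPHA2, a receptor widely expressed in epithelia and carcinomas, rose from 9.09 ± 0.09 to 9.66 ± 0.06 (SD, n = 3), by 0.57 (adjusted p = 0.00185). EPHA4, which can bind ephrins of both types, rose from 8.37 ± 0.15 to 8.98 ± 0.16, by 0.62 (adjusted p = 0.00337). EPHB3 has been described with the genes that rose in both lines. EPHA7, a receptor of the developing forebrain, went the other way, at 7.37, 7.34 and 7.22 on control arrays and 6.54, 6.35 and 5.99 on siSOX2 arrays. All its siSOX2 arrays were lower, with replicate 3 the lowest, and the fall was 1.02 (SE 0.13, adjusted p = 2.51e-05). It was 0.99 without control replicate 1 and 0.87 without siSOX2 replicate 3, each under 2-fold.

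In NTera-2 none of EPHA2, EPHA4 and EPHA7 passed, with changes of -0.12, -0.17 and -0.17. The NTera-2 arrays of EPHA7 read 6.34, 6.28 and 6.28 in control cells and 6.23, 5.93 and 6.23 after siSOX2. EPHA1, the receptor that gave the Eph family its name, fell there from 10.87 ± 0.21 to 9.99 ± 0.07 (SD, n = 3), by 0.87 (SE 0.13, adjusted p = 0.000385), or 1.83-fold. In 2102Ep EPHA1 read 10.26 ± 0.22 and 9.92 ± 0.14, a change of -0.34 (adjusted p = 0.116), and the difference between the lines was not called (0.54, adjusted p = 0.121). EPHB1, a receptor for B-type ephrins on retinal axons, rose in NTera-2. It read 7.58, 7.62 and 7.46 on control arrays and 7.99, 7.83 and 8.29 on siSOX2 arrays, which did not overlap. That rise, 0.48 (adjusted p = 0.046), missed the threshold in 11 of 20 other settings. Its 2102Ep arrays read 8.82, 8.66 and 8.37 in control cells and 8.70, 8.86 and 8.63 after siSOX2, and overlapped. The difference between the EPHB1 responses did not pass (-0.37, adjusted p = 0.392). EPHB6, a receptor without kinase activity, passed in neither line on its own, at 0.28 in 2102Ep (adjusted p = 0.112) and -0.30 in NTera-2 (adjusted p = 0.152). With each array centred on its median it passed in both, in opposite directions (adjusted p = 0.0458 and 0.0492), as it did with the arrays quantile-normalised again (0.0497 and 0.0348).

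Of the 4 Robo receptors ROBO1 alone passed, in 2102Ep. It read 9.22, 8.82 and 9.04 on control arrays and 9.85, 9.70 and 9.56 on siSOX2 arrays, a rise of 0.67 (SE 0.12, adjusted p = 0.000779). The NTera-2 control arrays read 10.13, 10.33 and 10.30 and the siSOX2 arrays 9.98, 9.97 and 10.18, which overlapped. ROBO1 was thus higher after siSOX2 in 2102Ep and had a change of -0.21 in NTera-2 (adjusted p = 0.469). ROBO2, its neighbour in RefSeq gene order, had changes of 0.37 (adjusted p = 0.178) and -0.39 (adjusted p = 0.256), which did not pass. The difference between the ROBO2 responses, 0.77 (adjusted p = 0.0722), passed with the arrays quantile-normalised again (adjusted p = 0.0456). ROBO3 and ROBO4, also neighbours, had changes from -0.23 to 0.06.

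The UNC5 receptors, which carry a death domain and mediate netrin repulsion, moved in different directions in 2102Ep. UNC5C rose from 5.94 ± 0.12 to 6.77 ± 0.12 (SD, n = 3), by 0.82 (SE 0.11, adjusted p = 5.6e-05). UNC5A fell from 8.28 ± 0.06 to 7.74 ± 0.13, by 0.54 (adjusted p = 0.00131), and UNC5D fell from 8.80 ± 0.10 to 8.20 ± 0.09, by 0.60 (adjusted p = 0.00126). In NTera-2 none of these 3 passed. UNC5D had a change of -0.33 there (adjusted p = 0.129), with siSOX2 arrays below the control arrays without overlap. That change passed with the arrays quantile-normalised again (adjusted p = 0.0375). The difference between the UNC5D responses did not pass (-0.27, adjusted p = 0.511). UNC5B, which is known from endothelial tip cells, rose in NTera-2 from 9.52 ± 0.01 to 10.00 ± 0.02, by 0.49 (adjusted p = 0.0424), and had a change of -0.12 in 2102Ep. The UNC5B rise missed the threshold in 11 of 20 other settings. The difference between the UNC5B responses did not pass (-0.60, adjusted p = 0.0798). DCC, the attractive netrin receptor, read between 5.62 and 6.07 on all 12 arrays and passed in neither line.

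The question of whether the lines responded differently was put to the difference of the responses itself. It passed for 8 of the 37 genes (21.6%), beside 5.2% of all genes, and in no case by 2-fold, beside 1.66%. It was above 0 for 5 of them, beside 2.53% of all genes, and below 0 for 3, beside 2.67%. Of the 8, 1 was a ligand, NTN4, and 7 were receptors. For EPHA2 the 2102Ep change exceeded that in NTera-2 by 0.68 (adjusted p = 0.0147), for EPHA4 by 0.79 (adjusted p = 0.0163), for ROBO1 by 0.89 (adjusted p = 0.00391) and for UNC5C by 0.67 (adjusted p = 0.0182). These 4 receptors rose in 2102Ep and did not pass in NTera-2. EPHB6 also passed, at 0.58 (adjusted p = 0.0324), from changes of opposite sign that did not pass by themselves, and it lost the call in 8 of 19 other settings.

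On the lower side EPHA7 differed by -0.85 (adjusted p = 0.00891) and NTN4 by the -0.79 given above, both having fallen in 2102Ep. UNC5A differed by -0.88 (SE 0.15, adjusted p = 0.00109). It had fallen in 2102Ep, and in NTera-2 its arrays went from 8.05 ± 0.10 to 8.39 ± 0.09 (SD, n = 3) without overlap, a change of 0.33 that did not pass (adjusted p = 0.0833). With the arrays quantile-normalised again the difference passed for 8 genes on the higher side and 3 on the lower, against 5 and 3 here. The higher side numbered 2 without NTera-2 control replicate 3, and 3 without 2102Ep siSOX2 replicate 1 or NTera-2 siSOX2 replicate 1 or 2, while the lower side numbered 6 without 2102Ep control replicate 2. Since the fall of SOX2 mRNA, the reagent and the amount of siRNA all differed between the lines, their part in these differences cannot be told apart from that of the line.

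**Figure D3:**
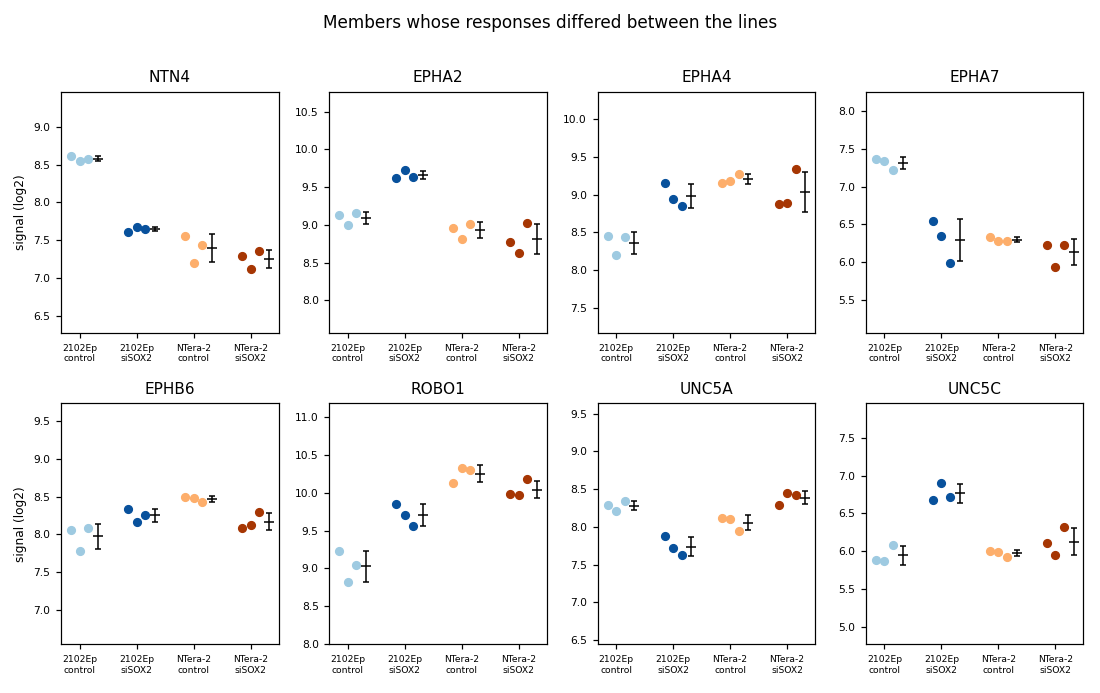
Log2 signal of the 8 genes whose change after siSOX2 differed between the lines. Points are arrays in the order of replicates 1 to 3, with the group mean and 1 SD beside them (n = 3), and each panel has its own vertical scale. NTN4 and EPHA7 step down in 2102Ep towards the NTera-2 values, while ROBO1 and EPHA4 step up in 2102Ep and stay below or overlap the NTera-2 control arrays.

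The control cells of the lines already differed in many of these genes. Of the 37, 22 (59.5%) passed the adjusted p between NTera-2 and 2102Ep control cells, beside 42.4% of all genes. In NTera-2 12 were higher, beside 21% of all genes, and 10 lower, beside 21.5%. The ligands passed in 10 of 15 cases and the receptors in 12 of 22. Arrays did not overlap for 24 of the 37, against 50.5% of all genes. At least 2-fold were 6 of the 37, beside 7.76% of all genes, and the median difference was -0.12 over the 37 genes and -0.06 over all. The lines were compared through the same control arrays that served the knock-down comparisons.

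EFNA4, an A-type ephrin, was higher in NTera-2, at 9.64, 10.17 and 10.02 against 8.77, 8.99 and 8.30 in 2102Ep, without overlap. The difference was 1.26 (SE 0.16, adjusted p = 5.52e-06), or 2.40-fold. ROBO1 was higher by 1.23 (adjusted p = 3.56e-07), or 2.34-fold, and SLIT2, a ligand of ROBO1, by 1.16 (adjusted p = 2.43e-07), or 2.23-fold. Lower in NTera-2 were NTN4 by -1.18 (adjusted p = 1.43e-07), EPHB1 by -1.06 (adjusted p = 5.21e-06) and EPHA7 by -1.01 (adjusted p = 7.12e-06), with array values as given above. These 3 are 2.27-fold, 2.09-fold and 2.01-fold. Leaving out 2102Ep control replicate 1 brought EPHB1 to -0.96 and EPHA7 to -0.98, and EPHA7 was also just under 2-fold without 2102Ep control replicate 2 or NTera-2 control replicate 3.

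Smaller differences above the threshold were found in 16 further genes. Higher in NTera-2 were the ephrins EFNA2 (0.40), EFNA5 (0.74), EFNB1 (0.49) and EFNB2 (0.43) and the receptors EPHA1 (0.61), EPHA4 (0.84), EPHB6 (0.49), ROBO2 (0.79) and UNC5D (0.33). Lower were the ligands EFNB3 (-0.31), SLIT3 (-0.77) and NTN1 (-0.67) and the receptors EPHA3 (-0.42), EPHA6 (-0.40), EPHB3 (-0.75) and UNC5B (-0.79). Of the 8 ephrins 5 were higher and 1 lower in NTera-2, and of the 4 netrins 0 were higher and 2 lower. Of all genes, 21% were higher and 21.5% lower. EFNA2, EFNB3, EPHA6 and UNC5D each missed the threshold in 3 to 6 of their other settings.

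**Figure D4:**
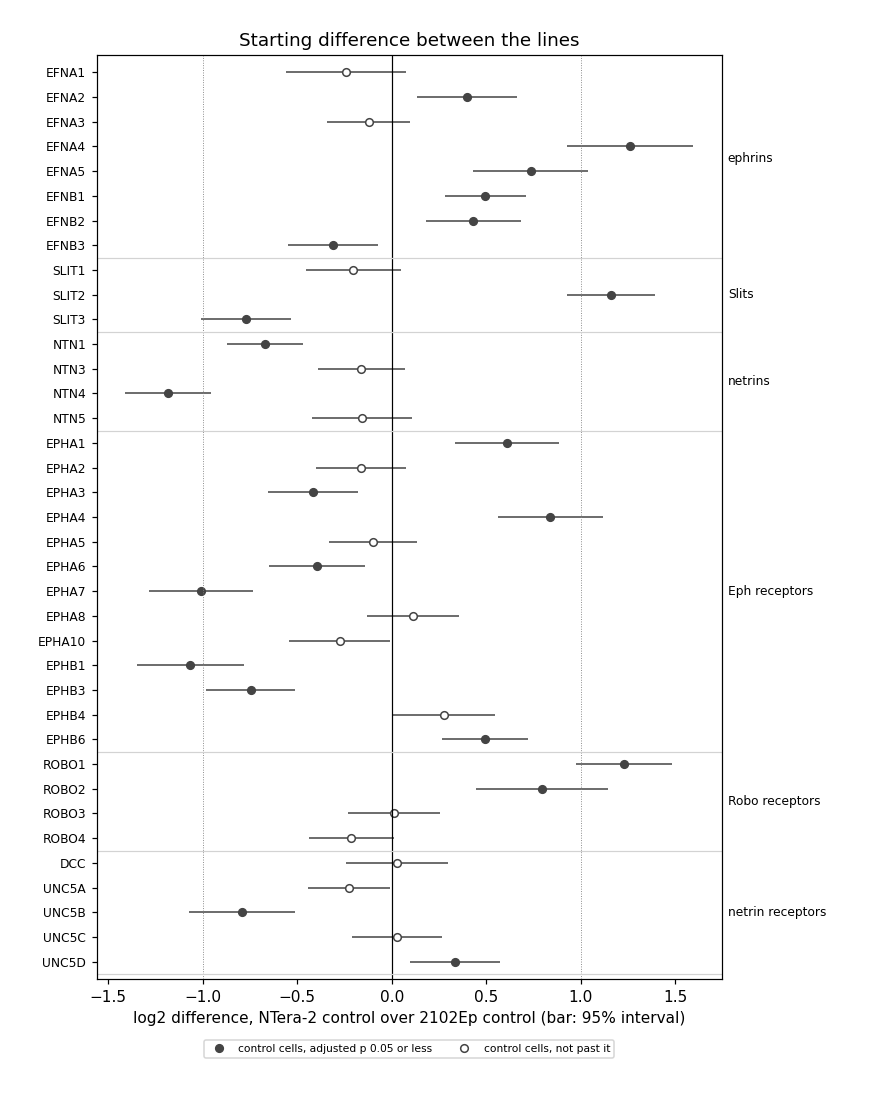
Difference between NTera-2 and 2102Ep control cells for each of the 37 genes, as a log2 difference with its 95% interval (limma, 3 arrays a group). Filled points passed the adjusted p of 0.05 and dotted lines mark 2-fold. EFNA4, SLIT2 and ROBO1 lie right of the upper line, and NTN4, EPHA7 and EPHB1 left of the lower one.

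None of the 4 comparisons was passed by 10 genes: SLIT1, NTN3, NTN5, EPHA5, EPHA8, EPHA10, EPHB4, ROBO3, ROBO4 and DCC. The share of all genes that passed none of the 4 was not counted, so nothing is read from this number. In neither knock-down passed 84.9% of all genes. The changes of the 10 genes after siSOX2 lay between -0.23 and 0.06 in 2102Ep and between -0.16 and 0.10 in NTera-2. Their 95% intervals lay inside -0.45 to 0.30 and -0.42 to 0.35. Of these 10, 9 were below the median gene signal, as were 17 of the 37. That median divides all genes measured into equal parts, so 17 of 37 is near the share over all genes. EPHB4, the venous partner of EFNB2, was the exception, at 9.60 to 10.27 over all arrays. The second probe set of EPHA10 did not pass in either line either.

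The genes that work beside the ligands and receptors were counted in the same way. Of 34 measured genes for Eph signalling partners, such as the adaptors and kinases below the receptors, 4 rose and 2 fell in 2102Ep and 0 passed in NTera-2, with none at 2-fold. The share that passed was 17.6% in 2102Ep, beside 12.7% of all genes, and 0% in NTera-2, beside 4.94%. The median of this list was 0.05 in 2102Ep and 0.08 in NTera-2. SRC (0.49, adjusted p = 0.00452), NCK2 (0.42), KALRN (0.39) and ABL1 (0.32) rose in 2102Ep, and ITSN1 (-0.41) and NGEF (-0.37) fell.

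Of 22 measured Slit-Robo partners 4 rose and 2 fell in 2102Ep, and 1 rose and 1 fell in NTera-2, with medians of 0.16 and 0.07. The shares were 27.3% and 9.09%, beside 12.7% and 4.94% of all genes. FLRT3, a co-receptor of Robo, rose in 2102Ep from 6.43 ± 0.20 to 7.71 ± 0.09 (SD, n = 3), by 1.28 (adjusted p = 4.7e-07), and read 8.20 ± 0.09 and 8.17 ± 0.12 in NTera-2. CDH2, the N-cadherin that Slit-Robo signalling can uncouple from its catenin, rose in 2102Ep from 8.45 ± 0.17 to 9.66 ± 0.03, by 1.21 (adjusted p = 3.35e-07), and fell in NTera-2 from 9.81 ± 0.09 to 9.05 ± 0.08, by 0.76 (adjusted p = 0.000208). The responses of CDH2 differed by 1.97 (adjusted p = 2.23e-07) and those of FLRT3 by 1.31 (adjusted p = 6.56e-05). Of 26 netrin partners 1 rose and 2 fell in 2102Ep and 2 rose and 2 fell in NTera-2, with medians of -0.02 and 0.01. The shares were 11.5% and 15.4%, beside 12.7% and 4.94% of all genes. DSCAM, a further netrin receptor, fell in both lines, by 0.64 in 2102Ep (adjusted p = 0.000297) and by 1.08 in NTera-2 (adjusted p = 3.37e-06), and the difference between these falls did not pass (0.44, adjusted p = 0.105). The lists share some genes and are described by their counts alone.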

How the data were processed

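RNA from 12 cultures (2 embryonal carcinoma lines, each with control siRNA or SOX2 siRNA, 3 arrays a group) was measured on Affymetrix Human Gene 1.0 ST arrays. Signals were deposited on a log2 scale, after the authors had normalised them by RMA, which subtracts background, quantile-normalises the arrays and summarises probes. The base of the log was taken from the range of the values (1.57 to 14.98). Of 32321 probe sets, 19158 carried 1 gene, 1388 several and 11775 none in the platform annotation, and those with several or none were left out. A current RefSeq (GRCh38.p14) symbol was matched for 18376 of 18404 genes, whether or not it differed from the annotated one. Where a gene had more than 1 probe set (637 genes) the brightest on average was kept.

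Groups were taken from the sample labels. All genes were fitted with limma 3.58.1 in R 4.3.3 (1 mean per group, moderated variance, Benjamini-Hochberg adjustment over 18404 genes), with contrasts for the siSOX2 response of either line, the difference of these responses, and NTera-2 against 2102Ep control cells. The submitters' processing notes also name limma. The study's threshold was a 2-fold change with p of 0.01 and an adjusted p of 0.05. With 3 arrays against 3 an exact permutation test cannot go below p = 0.1, so single-gene permutation tests were not used. Figures were drawn with matplotlib 3.10.9.

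Guidance genes were chosen by symbol, and the genes and lists were chosen with earlier results of these data known. Every member is named. Values on each array of the groups compared are given for members past both thresholds, and group means or changes for those past the adjusted p alone. Slit-Robo and netrin partners are named where they passed both thresholds in either knock-down, and the Eph partners named, none of which did there, were chosen after their values were seen. The alternatives were a replicate block, only the arrays compared, median centring, quantile normalisation again, a signal filter, other rules for probe sets, a variance prior with an intensity trend, no fold threshold, and leaving out each array. The tests were first run on simulated data. Protein sequences were not analysed here. Precision is limited by 3 arrays a group.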

Additional observations from a re-analysis of the deposited data

Results flagged for a closer look

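The change after siSOX2 differed between 2102Ep and NTera-2 for 8 guidance genes by limma's test of the difference itself (adjusted p of 0.05 or less over all genes). The difference, 2102Ep minus NTera-2 on the log2 scale, was 0.68 for EPHA2, 0.79 for EPHA4, 0.89 for ROBO1, 0.67 for UNC5C and 0.58 for EPHB6. It was -0.85 for EPHA7, -0.79 for NTN4 and -0.88 for UNC5A. In 20 or fewer other settings EPHA7, NTN4, ROBO1 and UNC5A lost the call in 0, EPHA2 in 1, UNC5C in 2, EPHA4 in 3 and EPHB6 in 8.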

How the results depend on the processing

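No guidance gene change past the adjusted p changed direction in any setting run; smaller changes were not followed throughout. Requiring genes at or above the median signal left 212, 66, 166 and 866 of all genes past the adjusted p and 2-fold (2102Ep, NTera-2, difference, lines). It left 0 guidance genes at 2-fold in 2102Ep, 1 in NTera-2 and 3 between lines. Lower at the adjusted p were 2, 1 and 6 in 2102Ep, the difference and the lines. That setting dropped the genes below the median before the fit, 17 of the 37 guidance genes among them. With no fold threshold 2330, 909, 957 and 7809 of all genes and 14, 9, 8 and 22 guidance genes passed. In NTera-2, median centring gave 1 guidance gene at 2-fold and 2 lower, and quantile normalisation again 1 and 3, with 8 higher for the difference; the cause was not tested. Leaving out 1 array at a time gave 353 to 391, 121 to 129, 297 to 331 and 1388 to 1520 of all genes, and 1 to 2, 1 to 2, 0 to 0 and 4 to 6 guidance genes at 2-fold. At the adjusted p it gave 8 to 10, 3 to 8, 2 to 7 and 10 to 12 higher and 4 to 5, 1 to 1, 3 to 6 and 8 to 10 lower. In 2102Ep the 2-fold count was 1 without control replicate 1 or siSOX2 replicate 3, and in NTera-2 it was 1 without control replicate 3 or siSOX2 replicate 3. The labels do not say whether the replicate numbers pair the arrays. Deviations of same-numbered arrays from their group means correlated at 0.07, 0.18 and 0.13 in 2102Ep. In NTera-2 these correlations were -0.25, -0.21 and 0.14. With 3 arrays a group they cannot decide whether the arrays were paired. A replicate block gave 10 higher and 4 lower in 2102Ep, 6 and 1 in NTera-2, 7 and 3 for the difference and 12 and 10 between lines. It lost SLIT3 in 2102Ep (adjusted p = 0.0604) and EFNB1 (0.0635) and EPHB1 (0.0681) in NTera-2, and gained ROBO2 in 2102Ep (0.0388) and EFNA1 (0.0198) and ROBO2 (0.00891) for the difference. Only the arrays compared could not be used for the difference, which needs all 4 groups.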
